A study of Arabidopsis thaliana with 12 samples.

Results

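The set described here holds 37 plastid locus codes of Arabidopsis, called genes here, outside the photosynthetic complexes. They are out of 133 plastid codes listed and 25422 genes listed in all. The genes were chosen by their plastid locus codes, as those for ribosomal proteins (rps, rpl), subunits of the plastid RNA polymerase (rpo), a splicing factor (matK), a subunit of acetyl-CoA carboxylase (accD), a protease subunit (clpP), a cytochrome c assembly factor (ccsA) and the large open reading frames ycf1 and ycf2. The deposited files give codes and no gene names. From notes in the reference annotation, ATCG00660 (rpl20), ATCG00670 (clpP) and ATCG01310 (rpl2) are given by name here, and the other codes by code alone. All 37 genes had reads in each of the 9 libraries used.

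The libraries came from 3 groups of 3, all of the Columbia ecotype. The first was met1-3 (met1), a mutant in the methyltransferase that maintains CG methylation, sampled as young shoots at 2 weeks. The second was ddcc, a quadruple mutant (drm1 drm2 cmt2 cmt3) in the methyltransferases for non-CG sites, sampled as mature leaves at 5 weeks. The third was the wild type, Col-0, sampled as mature leaves at 5 weeks. The labels name shoots and leaves, whereas the methods name the aerial part, with the inflorescence taken off at 5 weeks, and plants were grown at 22 °C with 16 h of light. Nothing in the labels says that replicates were separate plants, so p-values measure only the spread between these samples. ddcc and Col-0 share age, tissue and one table of values and were compared by test. met1 differs from Col-0 in genotype, age, tissue and table, which cannot be told apart, and its values are given as a description.

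The chloroplast keeps a small genome of bacterial descent and its own machinery to read it. A bacterial-type RNA polymerase, with a plastid-encoded core and nuclear-encoded sigma factors, transcribes it together with phage-type polymerases encoded in the nucleus. The ribosomal proteins of the set build the bacterial-type plastid ribosome with partners imported from the cytosol, and clpP encodes the catalytic subunit of a protease in the stroma. Such housekeeping genes are known for strong activity in young tissue, when chloroplasts are being built, whereas photosynthesis genes dominate the plastid transcripts of mature leaves.

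The start of the coding sequence is shown for the 3 genes given by name, because their identity and copy number decide how their reads can be interpreted. Each run is the first 60 bases from RefSeq (TAIR10.1), read 5′ to 3′ on the coding strand, with the start codon in capitals.

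rpl20: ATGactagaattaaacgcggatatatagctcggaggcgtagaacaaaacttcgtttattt
clpP: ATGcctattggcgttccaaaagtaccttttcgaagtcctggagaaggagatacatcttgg
rpl2 copy 1: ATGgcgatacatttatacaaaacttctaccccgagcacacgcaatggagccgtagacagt
rpl2 copy 2: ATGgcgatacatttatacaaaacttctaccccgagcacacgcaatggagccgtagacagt

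On the plastid chromosome of 154478 bp, rpl20 (Pltd:68512-68865, minus strand) has 1 exon and clpP (Pltd:69910-71882, minus strand) has 3 exons. They encode protein L20 of the large ribosomal subunit and the Clp protease subunit. rpl2, for protein L2 of the large subunit, is present as copy 1 (Pltd:84337-85843, minus strand) and copy 2 (Pltd:152806-154312, plus strand), each with 2 exons. Both copies lie wholly within the inverted repeat, a stretch of 26264 bp that the plastid genome carries on each side, and over 1507 bp they differ at 0 bases. A read from either copy therefore maps to both, and the authors removed reads with a mapping quality under 30. Reads were nevertheless counted on ATCG01310, and how they were assigned between copies is not given in the sources used here, so its level is uncertain. RefSeq places 5 gene names of the classes above in both repeats, and which of the codes given without a name belong to them was not established here. It gives 31 gene names in these classes, fewer than the 37 codes. Some codes may thus be copies of the same gene, and counts out of 37 are counts of codes.

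Sequencing depth was alike in the 3 groups. Libraries held from 10105057 to 13989374 counted reads, of which plastid genes took 56.7% to 58.3% in met1, 64.4% to 65.8% in ddcc and 57.8% to 59.6% in Col-0. Of the genes targeted in ddcc, DRM2 had 9 to 34 reads in ddcc, against 45 to 79 in Col-0, CMT3 had 31 to 35 in ddcc, against 46 to 54 in Col-0, and CMT2 had 145 to 183 in ddcc, against 111 to 163 in Col-0. MET1 had 260 to 447 reads in met1 and 40 to 70 in Col-0, so the transcript levels of MET1 and CMT2 do not separate the labels by loss, and DRM1 had at most 1 read in any library. Flower markers summed to at most 34.2 normalized reads in any library. Of the shoot meristem markers, CLV3 was at 0 in all libraries, and STM had 9 to 20 reads in met1, 46 to 67 in ddcc and 22 to 77 in Col-0. All 6 leaf photosynthesis markers were detected throughout.

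The 37 genes together held a small part of the plastid reads in mature leaves and a larger part in met1 young shoots. Their summed share was 4.91%, 5.16% and 6.32% of plastid reads in met1, 1.63%, 1.63% and 1.59% in ddcc and 1.64%, 1.60% and 1.72% in Col-0. All 3 met1 libraries lay above the others, with replicate 3 the highest, and ddcc overlapped with Col-0. The means were 5.46% ± 0.75 in met1, 1.62% ± 0.024 in ddcc and 1.65% ± 0.062 in Col-0 (SD, n = 3 each). The mean number of reads behind these shares was 374994 in met1, 135559 in ddcc and 120670 in Col-0. Because the samples are bulk tissue, fewer cells or plastids and less RNA in each cannot be told apart.

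A share also depends on the rest of the plastid reads, which a few genes dominated. ATCG00020, which is not one of the 37, took 29.2%, 28.5% and 26.5% of plastid reads in met1, 38.6%, 40.8% and 39.3% in ddcc and 49.8%, 48.3% and 52.2% in Col-0. These 3 ranges did not overlap, and Col-0 was the highest. With ATCG00020 left out of the denominator, the 37 genes held 7.59% of plastid reads in met1, 2.68% in ddcc and 3.32% in Col-0 on average, and the ddcc libraries (2.62% to 2.76%) then lay below those of Col-0 (3.10% to 3.60%).

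**Figure D1:**
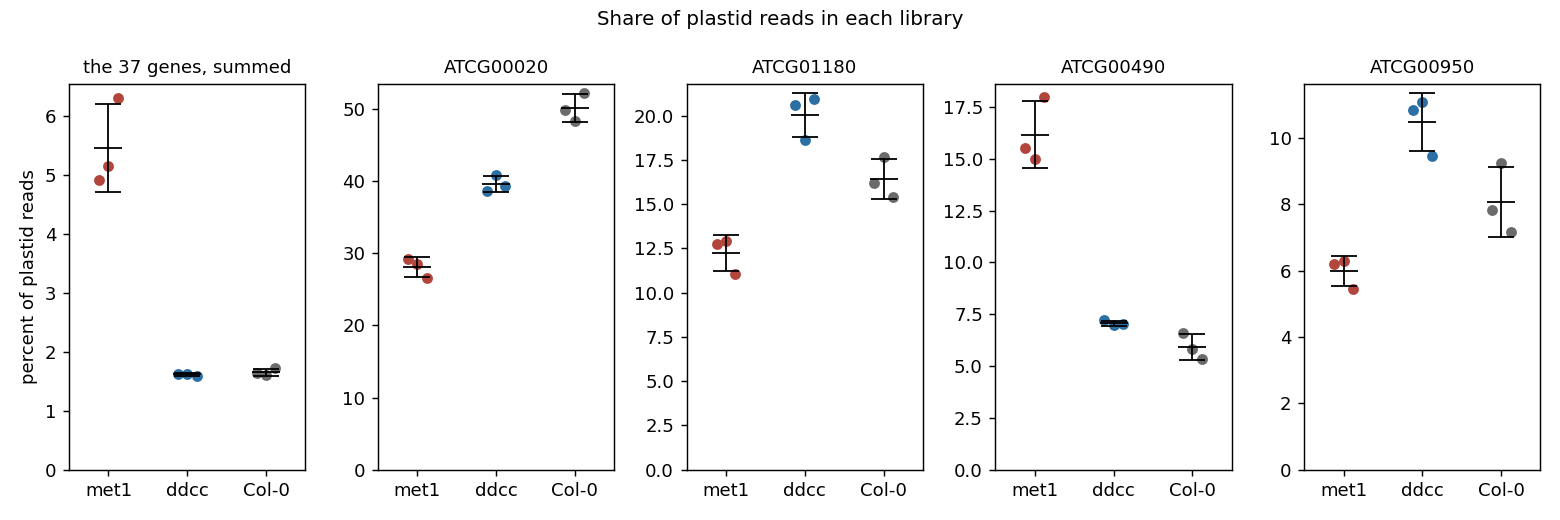
Share of plastid reads (percent, each panel with its own axis from 0) on the 37 genes summed and on the 4 other plastid genes with over 5% of plastid reads, in each library of met1 young shoots, ddcc and Col-0 mature leaves. Points are libraries and bars the mean ± SD (n = 3). The 37 genes stand at 4.91% to 6.32% in met1 and between 1.59% and 1.72% in both groups of mature leaves, whereas ATCG00020 is lowest in met1 and highest in Col-0.

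Within the set, reads were spread very unevenly. In each library 5 or 6 genes held 50% of the reads of the set, and the gene with the fewest, ATCG01300, had 124 to 167 reads in met1, 18 to 32 in ddcc and 25 to 32 in Col-0. The gene with the most was ATCG00040 in all 3 met1 libraries (21.5% to 24.2% of the set's reads) and in all 3 Col-0 libraries (16.1% to 16.5%). In all 3 ddcc libraries it was ATCG00330, with 14.8% to 15.6%.

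Levels can be compared between genes only per length, which was done for the 3 genes given by name. Per kilobase of coding sequence, clpP had 5546 ± 804 reads per 1000000 plastid reads in met1, 2767 ± 77.6 in ddcc and 3109 ± 134 in Col-0 (SD, n = 3 each). rpl20 followed with 4374 ± 421 in met1, 1091 ± 56.8 in ddcc and 1231 ± 168 in Col-0. rpl2 had 1320 ± 262 in met1, 432 ± 188 in ddcc and 464 ± 37.2 in Col-0. The order clpP, rpl20, rpl2 held in every library. The place of rpl2 in it is uncertain, because reads from its identical copies map to both and low mapping qualities were removed.

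**Figure D2:**
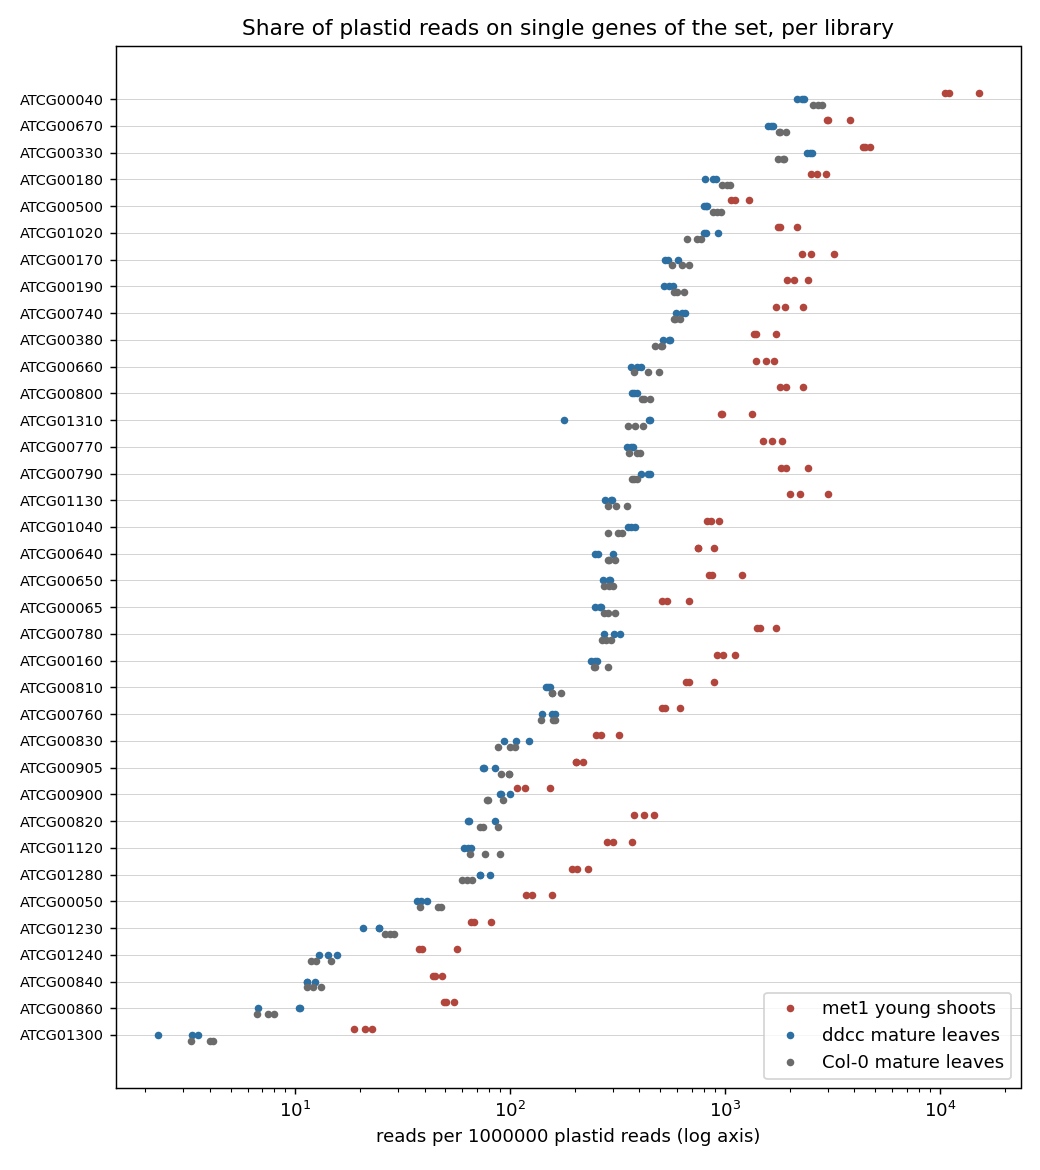
Reads per 1000000 plastid reads (log axis) on 36 genes of the set, 1 row a gene in the order of the Col-0 mean, with 1 point a library for met1 young shoots (red), ddcc (blue) and Col-0 mature leaves (grey). The red points lie right of the grey points in every row, and the single low blue point of ATCG01310 is ddcc replicate 3.

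The comparison of ddcc with Col-0 asks whether loss of non-CG methylation goes with a change in these transcripts. The deposited normalized values scale each library by a size factor from all genes. On them every one of the 37 genes had a log2 fold change above 0. So did 76 of the 82 other plastid genes tested and 8090 of the 17005 genes tested in all. Most of the changes in the set passed the test, at modest size. With total reads as the only scaling, however, 20 of the 37 lay above 0. With limma and Benjamini-Hochberg adjustment over 17005 genes, 24 of the 37 rose in ddcc at an adjusted p of 0.05, against 13.0% of all genes tested and 68.9% of the 119 plastid genes tested. None fell, where 8.32% of all genes and 1.68% of plastid genes did. By the unadjusted p, 31 of the 37 passed 0.05, all upward. In either direction, 6144 of all 17005 genes and 65 of the 82 other plastid genes tested passed it. The study's threshold for differentially expressed genes is an adjusted p of 0.01 with an absolute log2 fold change over 1. There the count was 0 of 37 (also 0 by limma-voom) against 5.06% of all genes tested. Without the fold change, 11 of the 37 passed an adjusted p of 0.01. So did 1699 of the 17005 genes and 46 of the 82 other plastid genes tested.

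The median log2 fold change of the 37 genes was 0.35 (range 0.13 to 0.91), where that of all genes was -0.03 and that of the 82 other plastid genes tested was 0.59. Of those 82 others, 58 rose and 2 fell. In 31 of the 37 genes all ddcc libraries lay above all Col-0 libraries, which was so for 21.1% of all genes tested, and in 0 all lay below, which was so for 19.4%. These counts depend on the scaling. With total reads as the only scaling the median of all genes was -0.35 and that of the set 0.02, and 7 of the 37 rose. The set's median stood 0.37 above that of all genes, against 0.38 with the deposited size factors. Leaving out single libraries lowered the count of 24 to between 13 (without Col-0 replicate 2) and 22; it was 14 without ddcc replicate 1 and 15 without ddcc replicate 2. The 6 leaf photosynthesis markers moved in the same direction, with a summed level of 102710 to 113419 normalized reads in ddcc and 38568 to 48023 in Col-0. Their part in the result was not tested.

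ATCG00330 had the largest change of the set. It had 24870, 21464 and 21550 normalized reads in ddcc, against 12342, 11755 and 12016 in Col-0. The lowest ddcc library lay well above the highest Col-0 library, and the log2 fold change was 0.91 ± 0.09 (SE; limma, adjusted p = 0.0001), or 1.88-fold.

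ATCG01020 had 7848, 7253 and 8057 normalized reads in ddcc, against 5114, 4398 and 4805 in Col-0. ATCG01040 had 3754, 3130 and 3167 in ddcc, against 2188, 1889 and 2064 in Col-0. The groups did not overlap for either gene, and the log2 fold changes were 0.69 ± 0.09 (adjusted p = 0.0006) and 0.71 ± 0.10 (adjusted p = 0.0010) by limma.

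ATCG00790 had 4381, 3876 and 3552 normalized reads in ddcc, against 2434, 2511 and 2538 in Col-0. ATCG01280 had 711, 714 and 629 in ddcc, against 436, 397 and 409 in Col-0. ATCG00860, one of the genes with fewest reads, had 66.0, 92.1 and 91.8 in ddcc, against 49.3, 53.0 and 43.2 in Col-0. Again no ddcc library reached down to Col-0. The log2 fold changes by limma were 0.65 ± 0.09 for ATCG00790 (adjusted p = 0.0011), 0.72 ± 0.09 for ATCG01280 (adjusted p = 0.0007) and 0.76 ± 0.19 for ATCG00860 (adjusted p = 0.019). With total reads as the only scaling they were 0.32, 0.40 and 0.43, and ATCG00860 no longer passed (limma adjusted p = 0.11).

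clpP, the protease subunit, rose by less. It had 15547, 14625 and 14594 normalized reads in ddcc, against 11891, 11811 and 12504 in Col-0, without overlap (log2 fold change 0.31 ± 0.08, limma adjusted p = 0.026). ATCG00500 had 7846, 7288 and 7147 in ddcc, against 6016, 5859 and 6229 in Col-0 (0.30 ± 0.08, limma adjusted p = 0.026). ATCG00800 had 3821, 3277 and 3301 in ddcc, against 2767, 2718 and 2917 in Col-0 (0.30 ± 0.09, limma adjusted p = 0.035). For these 3 genes the ddcc libraries were separate from Col-0, and the sign turned negative with total reads as the only scaling, where the values were -0.02 for clpP, -0.03 for ATCG00500 and -0.02 for ATCG00800. As a share of plastid reads, all ddcc libraries lay below all Col-0 libraries for the same 3 genes. Their log2 fold changes were then -0.17 each and did not pass (limma adjusted p = 0.13, 0.11 and 0.13).

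rpl20, the gene of ribosomal protein L20, did not pass the test on this scale. It had 3580, 3452 and 3528 normalized reads in ddcc, against 2473, 2908 and 3204 in Col-0 (log2 fold change 0.31 ± 0.10, limma adjusted p = 0.056). The groups were separate, but the spread was large in Col-0, and with total reads as the only scaling the log2 fold change was -0.02.

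rpl2, the gene with identical copies in the repeat, had 4392, 3948 and 1549 normalized reads in ddcc, against 2736, 2351 and 2462 in Col-0. Replicates 1 and 2 of ddcc lay above Col-0 and replicate 3 below it. The log2 fold change of 0.25 ± 0.32 was far from the threshold (limma adjusted p = 0.60) and turned to -0.02 without ddcc replicate 1. It was 0.73 without ddcc replicate 3. The summed share of the set, rpl2 included, was 1.59% in that library, against 1.63% in both other ddcc libraries. With rpl2 left out of the sum the share was 1.57%, against 1.59% in both others.

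Of the genes not described singly, 15 rose in ddcc, with log2 fold changes between 0.31 and 0.64, and 8 did not pass the test, with values between 0.13 and 0.41. ATCG01300, the gene with fewest reads, was at the low end with 0.13 ± 0.26 (limma adjusted p = 0.76), where its 18 to 32 reads per library limit what can be detected.

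**Figure D3:**
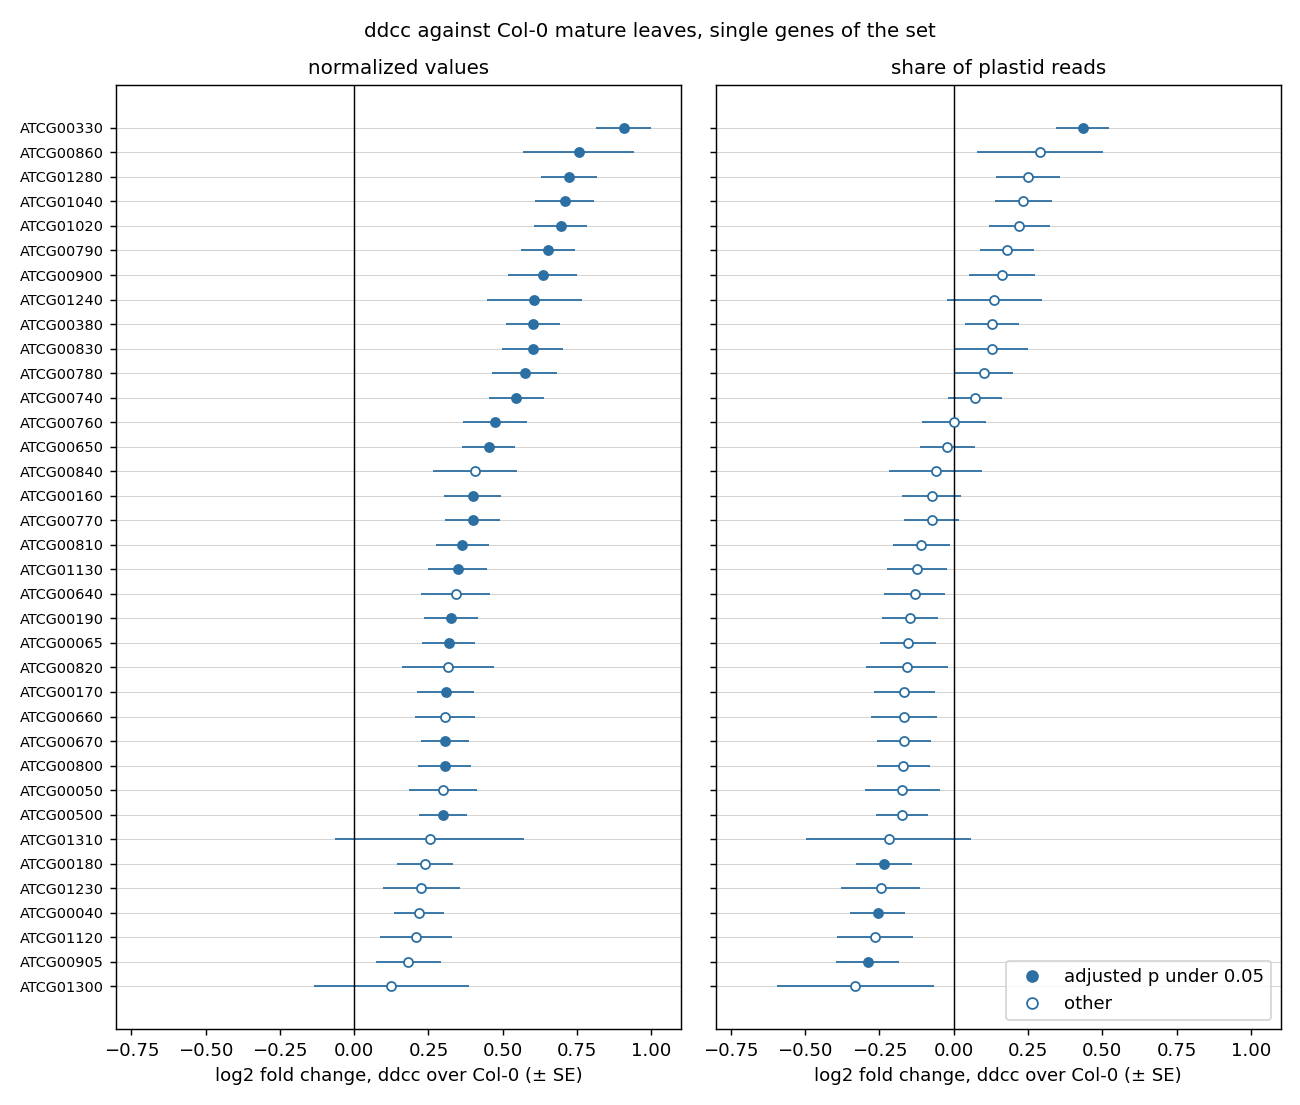
Log2 fold change of ddcc over Col-0 mature leaves (± SE, limma, n = 3 each) for 36 genes of the set, on the deposited normalized values (left) and as a share of plastid reads (right). Filled points have an adjusted p under 0.05, 24 genes on the left and 4 on the right. All points on the left lie above 0 with the deposited size factors (20 of the 37 genes with total reads as the only scaling), whereas 13 on the right lie above 0 and 23 below it, with ATCG00330 at the top of both panels.

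Since plastid genes as a class took more of the reads in ddcc, the same fit was made with each library scaled by its plastid reads, which compares the genes with the rest of the plastid transcripts. On this scale few of the 37 genes moved. Only ATCG00330 rose, 1 of 37 against 5.27% of all genes tested and 13.4% of plastid genes. The 3 genes that fell were ATCG00905, ATCG00040 and ATCG00180, against 51.0% of all genes and 8.40% of plastid genes. On this scale 14023 of the 17005 genes lay below 0, against 8915 on normalized values. The adjustment ran over all these genes, and their many low p-values made it mild. For the 3 genes the unadjusted p by limma was 0.019, 0.018 and 0.028. The count at the study's threshold was 0 of 37, where 10.8% of all genes passed. An unadjusted p of 0.05 was passed by 6 of the 37, by 10475 of the 17005 genes and by 28 of the 82 other plastid genes. The median log2 fold change of the set was -0.12, where that of all genes was -0.49 and that of the 82 other plastid genes 0.11. With the 119 plastid genes alone in the fit, the median was again -0.12 for the set and 0.07 for all 119.

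As a share, ATCG00330 had 2536, 2415 and 2474 reads per 1000000 plastid reads in ddcc, against 1874, 1771 and 1853 in Col-0. The groups were well apart, with a log2 fold change of 0.43 ± 0.09 (limma adjusted p = 0.0023). Without ATCG00020 in the denominator it was 0.16 (limma adjusted p = 0.21) and no longer passed.

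The genes that fell were close to the threshold. ATCG00040 had 2170, 2288 and 2337 reads per 1000000 plastid reads in ddcc, against 2709, 2582 and 2826 in Col-0 (log2 fold change -0.26 ± 0.09, limma adjusted p = 0.035). ATCG00905 had 85.0, 75.4 and 75.02 in ddcc, against 90.7, 98.5 and 98.4 in Col-0 (-0.29 ± 0.11, limma adjusted p = 0.036). ATCG00180 had 878, 909 and 803 in ddcc, against 966, 1024 and 1056 in Col-0 (-0.24 ± 0.09, limma adjusted p = 0.0498). All ddcc libraries lay below Col-0 for the 3 genes, yet their normalized values gave log2 fold changes of 0.22, 0.18 and 0.24, which did not pass (limma adjusted p = 0.094, 0.26 and 0.10). The direction of these 3 genes thus differs between the scales. This is not particular to them, since all 37 genes lay above 0 on normalized values and 24 lay below 0 as a share. The 3 calls were not stable. Each was lost without replicate 2 or 3 of Col-0 or of ddcc, and those of ATCG00040 and ATCG00180 also without ddcc replicate 1. With single libraries left out, the limma adjusted p ran from 0.020 to 0.12 for ATCG00905, from 0.039 to 0.10 for ATCG00040 and from 0.031 to 0.16 for ATCG00180, and 0 to 4 genes of the set fell.

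Across the whole set, the share was higher in all ddcc libraries than in all Col-0 libraries for 6 genes and lower for 11, and 20 genes overlapped. Among all 133 plastid codes 27.8% were higher and 14.3% lower in this way. What counts as a change in share was set by the denominator. Without ATCG00020 the counts were 0 higher and 21 lower of 37, without ATCG01180 they were 5 and 0, without ATCG00950 they were 4 and 0, and with the reads of the set itself as the denominator they were 2 (ATCG00330 and ATCG01040) and 0.

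The genes with the most reads changed their order between the groups. The ratio of ATCG00330 to ATCG00040 reads, a pair chosen after its values were seen, does not depend on any scaling. It was 0.425, 0.425 and 0.287 in met1, 1.17, 1.06 and 1.06 in ddcc and 0.692, 0.686 and 0.656 in Col-0. ATCG00330 thus exceeded ATCG00040 in the 3 ddcc libraries and in none of the others, and the 3 groups did not overlap.

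**Figure D4:**
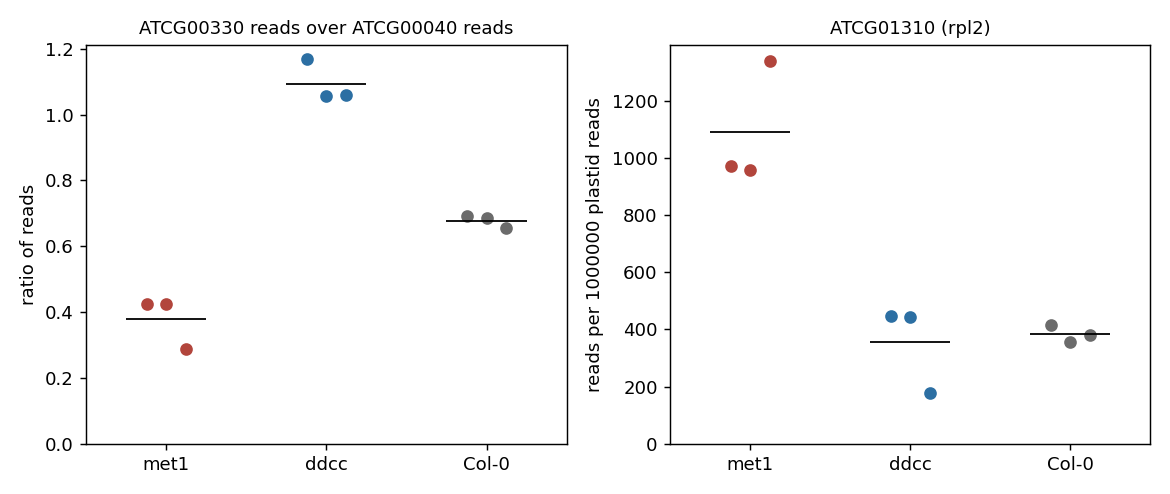
Left, reads of ATCG00330 divided by reads of ATCG00040 in each library. Right, reads of ATCG01310 (rpl2) per 1000000 plastid reads. Points are libraries of met1 young shoots, ddcc and Col-0 mature leaves and lines are means (n = 3). The ratio is over 1 only in ddcc, and rpl2 has 1 low ddcc library, replicate 3, at 178 against 448 and 444 in the other two.

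The met1 young shoots stood apart from both groups of mature leaves. The share of plastid reads was higher in all 3 met1 libraries than in all 3 Col-0 libraries for 37 of 37 genes, but this was also so for 91.0% of all 133 plastid codes and for 87.5% of the 96 others. No gene of the set, and 3.01% of the plastid codes, lay below Col-0 in all met1 libraries. With all plastid reads as the denominator, a higher share in met1 was therefore common to most plastid codes. These counts and the ratios of single genes were not recomputed without the 4 dominant genes. Without those 4, the summed share of the set was 14.5% in met1 and 8.49% in Col-0, against 5.46% and 1.65% with them. Genes with the lowest ratios may thus not lie above Col-0 with that denominator. The median ratio of mean shares, met1 over Col-0, was 3.36 for the 37 genes (range 1.26 to 7.66) and 2.45 for the 94 other plastid genes with a ratio. The ratio was at least 2 for 33 of the 37, against 73.3% of the plastid genes with a ratio. No test was made, since genotype, age and tissue differ together. The 6 leaf photosynthesis markers, on values normalized in a separate table, summed to 146615 to 168357 in met1. Of the root markers, PYK10 had 444 to 902 reads in met1 and 40 to 93 in Col-0, whereas PIN2 had at most 4 reads in any library. Of the senescence markers, SAG13 had 179 to 296 reads in met1 and 727 to 838 in Col-0, whereas SAG12 had 1, 0 and 26 reads in met1 and at most 1 in Col-0. The part of these differences in the met1 values was not tested.

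ATCG01130 had the highest ratio, 7.66. It had 2015, 2239 and 3006 reads per 1000000 plastid reads in met1, 293, 298 and 276 in ddcc and 287, 312 and 349 in Col-0. It was 6th by reads within the set in met1, 18th in ddcc and 16th in Col-0. ATCG00860, with 49.3, 50.4 and 54.9 in met1, 6.73, 10.4 and 10.5 in ddcc and 7.48, 7.99 and 6.66 in Col-0, had a ratio of 6.99.

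ATCG00780 and ATCG00790 had ratios of 5.46 and 5.43. ATCG00790 had 1828, 1916 and 2437 reads per 1000000 plastid reads in met1, 447, 436 and 408 in ddcc and 370, 378 and 391 in Col-0. ATCG00040 had 10573, 11081 and 15282 in met1 and 2709, 2582 and 2826 in Col-0, a ratio of 4.55. Replicate 3 of met1 was the highest for ATCG00040, as it was for the summed share, and ATCG00330 was an exception, with 4497, 4713 and 4382 in met1, where replicate 3 was the lowest.

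At the low end, ATCG00500 had 1113, 1072 and 1294 reads per 1000000 plastid reads in met1, 800, 820.0 and 820.4 in ddcc and 913, 883 and 960 in Col-0, a ratio of 1.26. ATCG00900 followed with 1.52 and clpP with 1.78. clpP had 2984, 3023 and 3826 in met1, 1585, 1645 and 1675 in ddcc and 1805, 1780 and 1928 in Col-0. Both ribosomal protein genes given by name lay near the median of the set, with ratios of 3.55 for rpl20 and 2.84 for rpl2.

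rpl20 had 1396, 1557 and 1693 reads per 1000000 plastid reads in met1, 365, 388 and 405 in ddcc and 375, 438 and 494 in Col-0. rpl2 had 972, 957 and 1339 in met1, 448, 444 and 178 in ddcc and 415, 354 and 380 in Col-0. For both genes the met1 libraries were far above the mature leaves, whereas ddcc overlapped with Col-0.

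**Figure D5:**
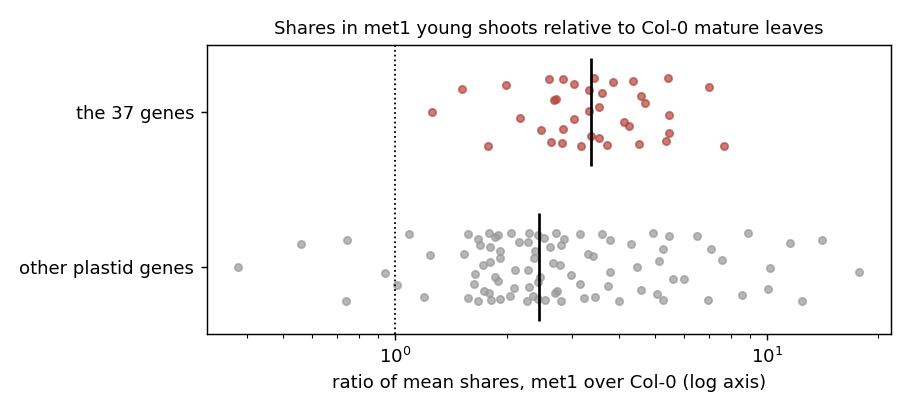
Mean share of plastid reads in met1 young shoots divided by that in Col-0 mature leaves (log axis), 1 point a gene, with the vertical bar at the median; vertical scatter only separates the points. The 37 genes (top) run from 1.26 to 7.66 around a median of 3.36, and the 94 other plastid genes (bottom) around 2.45, some of them below the dotted line at 1.

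The nucleus encodes most partners of these genes, and 94 of 96 listed partner genes were tested in the comparison of ddcc with Col-0. On normalized values 42 rose and 2 fell by limma at an adjusted p of 0.05, beside 13.0% higher and 8.32% lower of all genes tested, and their median log2 fold change was 0.30. With total reads as the only scaling 23 rose and 24 fell, so the balance of this count depends on the scaling, and without Col-0 replicate 2 there were 25 higher and 1 lower.

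Nuclear-encoded proteins of the plastid ribosome, the partners of the rps and rpl products, made up most of the genes that rose, 31 of 40 with 0 lower and a median of 0.69. The largest change was in the gene for ribosomal protein L34 (AT1G29070), with 132, 131 and 101 normalized reads in ddcc, against 43.0, 22.6 and 26.1 in Col-0 (log2 fold change 1.997 ± 0.25, limma adjusted p = 0.00046). RPL12-A, a protein of the ribosomal stalk, followed with 475, 418 and 396 in ddcc, against 161, 126 and 106 in Col-0 (1.72 ± 0.16, limma adjusted p = 6.8e-05). PSRP3/1, a plastid-specific ribosomal protein, had a log2 fold change of 1.43 ± 0.13, and the smallest among those that rose was 0.38 ± 0.09 for EMB3126 (ribosomal protein L1). No ddcc library overlapped with Col-0 for L34 or RPL12-A.

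The genes that direct the plastid polymerase did not move together. Of 6 sigma factors, which bring the polymerase to promoters, 3 rose and 1 fell. SIG4 had 79.2, 68.6 and 63.0 normalized reads in ddcc, against 51.4, 26.1 and 25.3 in Col-0 (log2 fold change 1.09 ± 0.27, limma adjusted p = 0.020), while SIGA and SIG2 rose by 0.38 and 0.34 on the log2 scale. SIGE had 1696, 1535 and 1282 in ddcc, against 2318, 2694 and 2608 in Col-0, without overlap (-0.76 ± 0.11, limma adjusted p = 0.0015).

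Of 12 proteins associated with the plastid polymerase, 1 rose, TRX z, a thioredoxin (0.97 ± 0.25, limma adjusted p = 0.023), beside 13.0% of all genes tested, and the list's median log2 fold change was -0.13. Of the 2 phage-type polymerases, AT5G15700 fell with 128, 132 and 82.9 normalized reads in ddcc, against 177, 147 and 197 in Col-0 (-0.62 ± 0.20, limma adjusted p = 0.0495). This call was at the edge of the threshold, and all 3 ddcc libraries were below Col-0.

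Among the nuclear-encoded partners of clpP, 2 of 15 Clp genes rose, a share near the 13.0% of all genes tested, and the list's median log2 fold change was -0.02. They were AT1G09130 (1.27 ± 0.13, limma adjusted p = 0.00015) and CLPP4 (0.45 ± 0.12). Of 3 nuclear acetyl-CoA carboxylase genes tested, 1 rose, CAC1, with 62.4, 57.8 and 42.0 normalized reads in ddcc, against 14.7, 19.1 and 22.8 in Col-0 (1.47 ± 0.25, limma adjusted p = 0.0031). Of 8 tested genes for import partners, MDH and emb1211 rose by 0.56 and 0.44 on the log2 scale. In the lists for cytochrome c assembly and intron splicing 1 gene each rose, AT1G49380 (0.65 ± 0.16, 1 of 3) and CAF2 (0.62 ± 0.17, 1 of 5).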

How the data were processed

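Total RNA was measured by paired-end 150 bp sequencing in 12 samples, of which 9 were used. The authors trimmed reads (Fastp in the methods, Trimmomatic in the submitters' processing notes), mapped them to TAIR10 with Hisat2, removed mapping qualities under 30 and counted with HTSeq-count. Versions and strand setting are not given in the sources used here. The deposited values are log2 of reads per gene over a size factor, plus 1. Undoing the log gave whole reads for 100.0% of values within 0.001, and these were used for shares. The 3 files labelled as met1-3 mature leaves held the Col-0 reads (22607 of 22607 shared genes identical) and were left out. The met1 young shoot table was normalized separately and was not tested against the others.

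The main fit was limma 3.58.1 in R 4.3.3 (lmFit, eBayes with trend, two-sided) on the log2 values of the 3 ddcc and 3 Col-0 libraries, with about 10 reads in at least 3 libraries required. The pseudocount of 1 understates the changes of low genes. A second fit scaled libraries by plastid reads. Both were also run on simulated counts in which randomly chosen genes were changed. The simulation held no shift of plastid genes as a class, so it cannot test the dependence on scaling or denominator. Shares were computed in Python 3.11.15 with pandas 2.3.3. Depth was 10105057 to 13989374 reads per library, and p-values or shares from few reads carry counting error that reads without molecular identifiers understate.

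Genes described singly were, of the 27 genes past a call in either fit, the 6 highest and 6 lowest by share. The rule also listed genes by name, which could be applied to clpP only, and rpl20 and rpl2 were added after their values were seen because the reference names them. In the set, 1 gene is included in all totals and is not reported singly here. Partner genes were the 3 highest and 3 lowest of each list among those past the test, of which the text gives the main ones. Members and lists were chosen with earlier results of these data known. Alternatives were other scalings (total reads, TMM, nuclear size factors, limma-voom), pseudocounts, filters, thresholds, denominators, a replicate block and leaving out each library. Denominators without ATCG01180, ATCG00490, ATCG00950 or all 4 dominant genes, the reads of the set as denominator and the set without rpl2 were chosen after seeing the data. The alternative without genes that have a copy in the inverted repeat and shares by role group were not made, because most codes carry no name here.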

Additional observations from a re-analysis of the deposited data

How the results depend on the processing

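In the normalized comparison of ddcc with Col-0, an adjusted p of 0.01 without a fold change threshold passed 11 of the 37 genes. It passed 1699 of all 17005 genes and 46 of the 82 other plastid genes. In the share comparison it passed 1 of the 37, against 6260 of all genes and 13 of the 82. With total reads as the only scaling 7 genes rose and 20 of the 37 lay above 0, against 37 with the deposited size factors. Among the genes described singly, the log2 fold change turned negative for ATCG00905 (-0.15), ATCG00040 (-0.11), ATCG00180 (-0.090), ATCG00500 (-0.030), ATCG00800 (-0.024), clpP (ATCG00670, -0.023), rpl20 (ATCG00660, -0.022) and rpl2 (ATCG01310, -0.075). ATCG00860 (0.43) no longer passed under that scaling, whereas ATCG00330 (0.58), ATCG01020 (0.37) and ATCG01040 (0.38) still passed at smaller values. Each library left out in turn gave 13 to 22 genes higher. With single libraries left out, rpl2 ranged from -0.017 (without ddcc replicate 1) to 0.73 (without ddcc replicate 3) on normalized values and from -0.44 to 0.22 as a share, positive only without ddcc replicate 3.

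In the share comparison (1 higher, 3 lower), leaving ATCG00020 out of the denominator gave 0 higher and 21 lower and left 2 genes above 0, against 13 before. Of the genes described singly, it turned ATCG01280 (-0.026), ATCG01040 (-0.042), ATCG01020 (-0.056) and ATCG00790 (-0.10) negative. Without all 4 dominant genes there were again 0 and 21, and 4 genes above 0, with ATCG01020 at -0.0087 and ATCG00790 at -0.051. The counts were 5 and 0 without ATCG01180, 2 higher without ATCG00490, 4 and 0 without ATCG00950, 2 and 0 with the set's own reads as denominator, and 1 lower without a filter. Leaving out single libraries gave 1 to 3 higher and 0 to 4 lower.

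The summed share of the set, ddcc minus Col-0, was -0.036 percentage points. It was 0.079 over all reads, -0.64 without ATCG00020, 0.046 without ATCG01180 and -1.40 without the 4, and -0.062 to -0.0018 with single libraries left out. For met1 the share of 5.46% was 3.15% over all reads, 7.59% without ATCG00020, 6.22% without ATCG01180, 6.53% without ATCG00490 and 14.5% without the 4, and 5.04% to 5.74% with single libraries left out. The Col-0 mean went from 1.65% to 8.49% without the 4, so met1 then stood proportionally less far above Col-0.

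For the nuclear partners (42 higher, 2 lower), total reads gave 23 higher and 24 lower. Nuclear size factors gave 1 lower, as did a pseudocount of 0.1. Leaving out single libraries gave 25 to 40 higher and 1 to 2 lower. In each case except the denominators and total reads, whose construction moves all genes together, the cause was not tested.

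Same-numbered ddcc and Col-0 libraries deviated from their group means with correlations of 0.21, 0.00085 and 0.035, and differently numbered ones with -0.19 to 0.17. With 3 libraries in a group these values cannot decide whether replicate numbers pair the samples. The main fit took them as unpaired. In a fit with a replicate block, 26 of the 37 genes rose on normalized values, 2 rose and 3 fell as a share, and 5 nuclear partners fell. The genes with fewest reads, such as ATCG01300 with 18 reads in 1 library, are limited by their low counts. Why the counts are low was not tested. Leaving out a library leaves 2 in its group, whose spread is pooled with that of the other.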
